A study of Homo sapiens with 4 samples.

Results

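The genes described here encode the proteins of the mitochondrial ribosome. They were taken by name, as the genes whose symbol starts with MRPL (large subunit) or MRPS (small subunit) followed by a number, and pseudogenes were left out. Of 77 such protein-coding genes in the gene table, 68 had a probe set that names 1 gene only, 45 of the large and 23 of the small subunit, out of 17144 genes measured in all. The other 9 share every probe set with another gene symbol, so they enter only 1 alternative analysis. Where a gene had several probe sets (10 of the 68), the one with the highest mean over all arrays was used.

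The cells were WM35, a human line from a radial growth phase melanoma. C646, an inhibitor of the histone acetyltransferase p300 and its relative CBP, was added to cultures at 20 µM, control cultures were given its solvent DMSO at 0.2%, and cells were collected 6 h or 24 h later. The 4 groups were therefore C646 for 6 h, DMSO for 6 h, C646 for 24 h and DMSO for 24 h, each with 1 Affymetrix Human Exon 1.0 ST array. The question set by this design is what blocking acetylation by p300 does to transcript levels, and here to those of 1 molecular machine.

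Mitochondrial ribosomes translate the few messenger RNAs of the mitochondrial genome, all of which encode subunits of the respiratory chain and ATP synthase. Their RNA comes from the mitochondrial genome, but every one of their proteins is encoded in the nucleus, made in the cytosol and imported. Some of these proteins have bacterial relatives and hold the ancestral core, and others exist only in mitochondria and surround it.

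With 1 array per group, a C646 minus DMSO difference is the log2 level on 1 array minus that on another, and it has no replicate check. The arrays limit the precision, and whether they came from separate cultures of 1 experiment was not given in the sources used here. In RNA from a whole culture, fewer cells of a kind and less RNA per cell cannot be told apart. The melanoma label was met by 6 measured melanocyte genes, which lay between 6.06 and 10.95 on the log2 scale on all arrays. These genes were not level between treatments: their C646 minus DMSO median was 0.45 at 6 h, with 5 of 6 above 0, and 0.57 at 24 h, with 6 of 6 above 0, from 0.08 for PMEL to 1.49 for S100B. Their log2 values summed to 49.6 with C646 and 47.5 with DMSO at 6 h, and to 49.9 with C646 and 46.1 with DMSO at 24 h. A sum of log2 values is not a sum of RNA amounts. Leukocyte and endothelial genes read at most 3.75 on every array. Of the keratinocyte genes, KRT10 read 5.82 to 5.99, while KRT14, KRT1 and DSG3 read at most 3.93 on every array. Of the fibroblast genes, LUM read 5.55 to 5.92 and COL1A1 4.02 to 4.08, while COL1A2 and DCN read at most 3.80. Proliferation genes differed strongly at 24 h: all 8 were lower with C646, by a median of -1.99 on the log2 scale. Their log2 values summed to 42.4 on the C646 array against 58.8 on the DMSO array. The smallest of these differences, -0.47 for PCNA, came from a probe set numbered among another chromosome than the gene's. At 6 h the log2 values of the 8 genes summed to 58.4 with C646 and 60.7 with DMSO. The part of the melanocyte and proliferation differences in the values below was not tested.

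To show the DNA in front of members whose values are described first, the 250 bases before the annotated start of 4 genes are given from RefSeq (build GRCh38.p14, on the strand of the gene, 5′ to 3′). Capitals mark short motifs searched on both strands: the GC box GGGCGG, the ETS family letters CCGGAAG bound by GABP, the YY1 letters AAGATGGCG, the E-box CACGTG and the NRF1 letters GCGCATGCG. None of the 5 contains another. MRPS14 lies at chr1:175023426-175023675 on the minus strand, and the gene had the highest difference at 24 h. MRPS25, at chr3:15065316-15065565 on the minus strand, had the highest at 6 h. MRPL40, at chr22:19432295-19432544 on the plus strand, was a large subunit gene with nearly equal positive differences at both times. MRPL36, at chr5:1799838-1800087 on the minus strand, had the lowest difference at both times, from a probe set numbered among another chromosome than the gene's. Its second probe set, numbered among its own chromosome, gave -0.0035 at 6 h and -0.23 at 24 h.
MRPS14: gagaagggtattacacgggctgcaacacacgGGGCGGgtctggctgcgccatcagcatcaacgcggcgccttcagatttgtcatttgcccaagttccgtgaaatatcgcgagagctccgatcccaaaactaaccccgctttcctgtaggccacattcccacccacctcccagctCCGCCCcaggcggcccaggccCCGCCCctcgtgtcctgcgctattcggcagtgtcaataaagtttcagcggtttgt
MRPS25: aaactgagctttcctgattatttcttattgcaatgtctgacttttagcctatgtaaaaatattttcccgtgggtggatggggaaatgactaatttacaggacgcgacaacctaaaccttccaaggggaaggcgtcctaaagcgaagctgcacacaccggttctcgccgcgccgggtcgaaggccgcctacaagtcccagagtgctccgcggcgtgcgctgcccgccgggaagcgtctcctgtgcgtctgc
MRPL40: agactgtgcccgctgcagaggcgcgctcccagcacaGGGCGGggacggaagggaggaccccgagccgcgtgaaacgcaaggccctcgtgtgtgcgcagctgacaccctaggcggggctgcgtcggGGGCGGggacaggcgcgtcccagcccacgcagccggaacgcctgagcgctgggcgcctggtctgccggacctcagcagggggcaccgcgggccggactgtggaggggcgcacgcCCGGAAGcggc
MRPL36: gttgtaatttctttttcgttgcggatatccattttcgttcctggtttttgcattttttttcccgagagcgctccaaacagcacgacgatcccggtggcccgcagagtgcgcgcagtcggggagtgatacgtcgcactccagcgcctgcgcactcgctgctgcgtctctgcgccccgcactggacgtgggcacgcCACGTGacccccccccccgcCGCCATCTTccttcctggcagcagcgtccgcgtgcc
MRPS14 carries GC boxes and none of the other letters, MRPS25 carries none of the 5 motifs, MRPL40 has ETS letters next to its start with GC boxes farther upstream, and MRPL36 has an E-box followed by YY1 letters read on the opposite strand. A match of letters is a description of the sequence and does not show that a factor binds there.

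Taken as a group, the mitochondrial ribosomal protein genes read close to their DMSO levels with C646 at both times. At 6 h the 68 differences had a median of 0.038 on the log2 scale and ran from -0.49 to 0.60, and 45 of 68 (66.2%) were above 0. Over the 10707 genes with a mean level at or above the 40th percentile of all probe sets, the median was 0.0029 and 50.7% were above 0. At 24 h the members had a median of 0.069, a range of -0.58 to 0.73 and 43 of 68 (63.2%) above 0, beside a median of 0.030 and 55.1% over all genes. Set against the mean of both DMSO arrays, the members' median was 0.059 at 6 h and 0.034 at 24 h.

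Few members differed by a large factor. At 6 h, 1 of 68 was at least 1.5-fold higher with C646 (MRPS25) and 0 were 1.5-fold lower, against 0.943% and 0.897% of all genes. At 24 h, 1 was at least 1.5-fold higher (MRPS14) and 0 were lower, against 4.36% and 5.81% of all genes. Neither time had a member past 2-fold in either direction, a size that 0.205% of all genes reached at 6 h and 3.85% at 24 h. At a 1.2-fold limit, chosen after the values were seen, 5 members were higher and 2 lower at 6 h, where the shares of all genes were 7.66% and 7.34%. At 24 h 9 members were higher and 4 lower (13.2% and 5.88%), where the shares of all genes were 19.4% and 15.0%.

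The spread of the members at 24 h was also narrower than that of all genes. The interquartile range of the members' 24 h differences was 0.239 on the log2 scale, beside 0.348 over all genes, and the SD over genes was 0.215 beside 0.456. At 6 h the interquartile ranges were 0.122 and 0.214. A narrow 24 h range was not particular to the members. It was 0.185 for mitochondrial aminoacyl-tRNA synthetases, 0.206 for respiratory chain and ATP synthase subunits and 0.229 for mitochondrial translation factors. Assembly and rRNA factors had 0.268 and cytosolic ribosomal proteins 0.269, while regulators of mitochondrial biogenesis had 0.44. Most of the cytosolic ribosomal protein genes were read from probe sets numbered among another chromosome than the gene's.

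**Figure D1:**
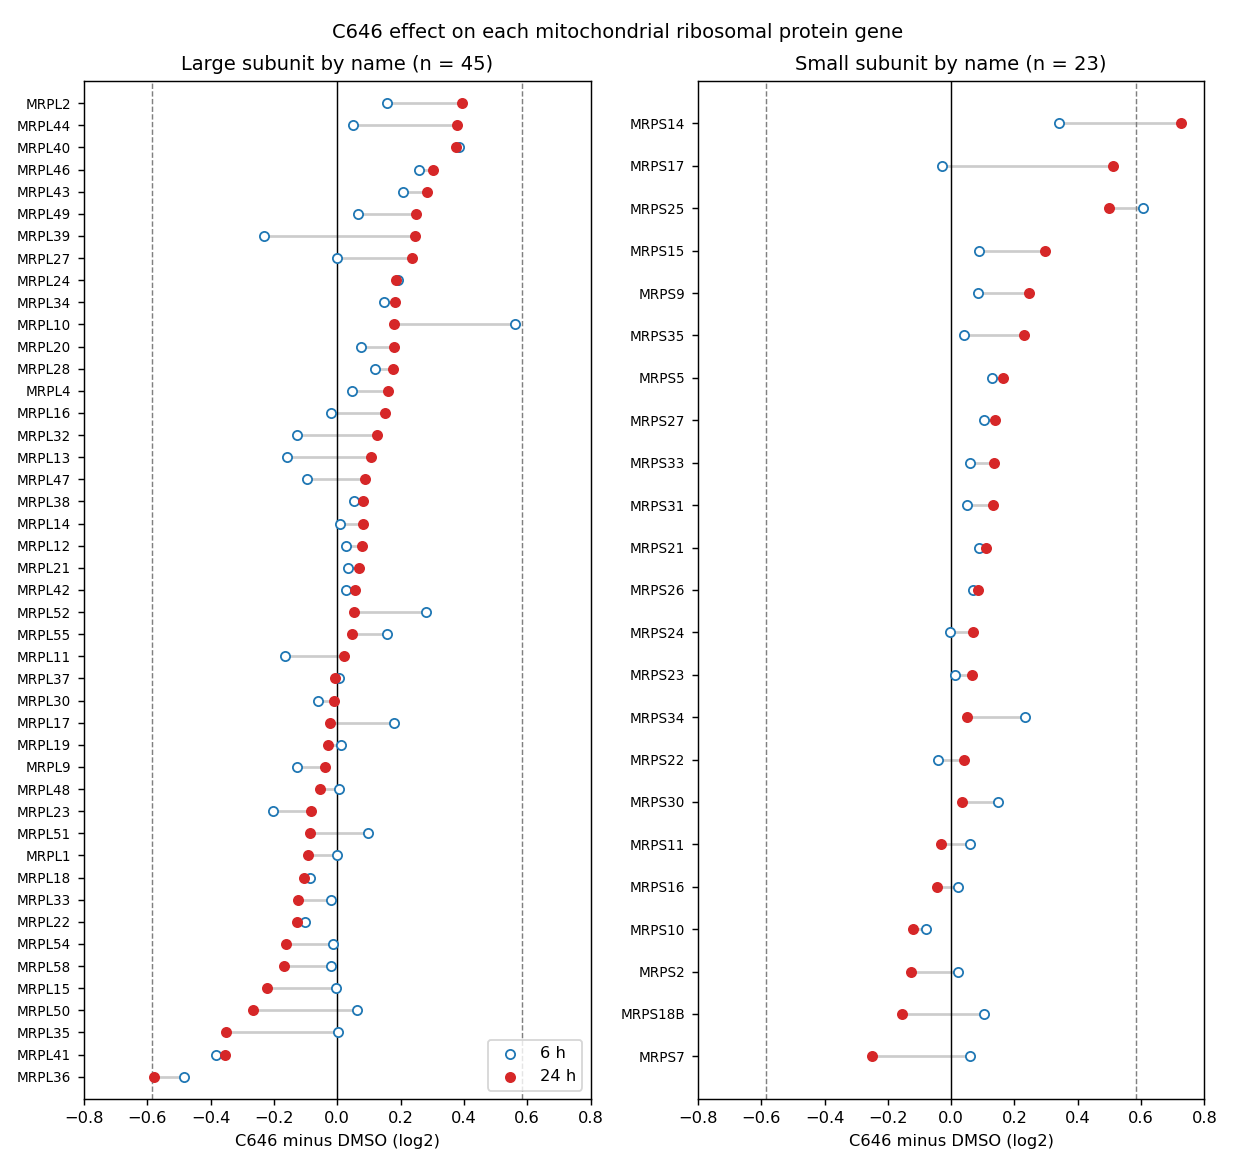
Log2 C646 minus DMSO at 6 h (open circles) and 24 h (filled circles) for each of the 45 large subunit and 23 small subunit genes, sorted by the 24 h value, with a grey line joining both times and dashed lines at 1.5-fold. Most genes sit near 0, MRPS14 passes the upper line at 24 h and MRPS25 at 6 h, and no gene passes the lower line.

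Small subunit members lay slightly above large subunit members. At 6 h the small subunit had a median of 0.060 with 19 of 23 genes above 0, and the large subunit one of 0.0078 with 26 of 45 above 0. At 24 h the medians were 0.084 in the small subunit, with 17 of 23 genes above 0, and 0.056 in the large subunit, with 26 of 45. The large minus small difference of medians was thus -0.052 at 6 h and -0.028 at 24 h. The 24 h value does not have a settled sign: over the 59 members above the 60th percentile of level it was 0.0049. Moving MRPS30, whose protein sits in the large subunit despite its name, to the large subunit gave -0.043.

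Genes with bacterial relatives and genes found only in mitochondria did not separate in a common way. Among large subunit genes, the 29 with bacterial relatives gave a median of -0.00044 at 6 h and one of 0.068 at 24 h, and the 16 mitochondria-specific ones had 0.052 and 0.055. Among small subunit genes, the 12 with bacterial relatives had medians of 0.059 and 0.090, and the 11 mitochondria-specific ones had 0.068 and 0.084. In this last class 10 of 11 genes were above 0 at each time.

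MRPS14 encodes a small subunit head protein with a bacterial relative (probe set 2444790). It read 7.65 with C646 and 7.31 with DMSO at 6 h, and 7.80 with C646 and 7.08 with DMSO at 24 h. Both C646 arrays were therefore above both DMSO arrays, by 0.34 (1.27-fold) at 6 h and by 0.73 (1.65-fold) at 24 h. The vehicle arrays also differed, with DMSO at 24 h 0.24 below DMSO at 6 h.

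MRPS25 encodes a mitochondria-specific small subunit protein (probe set 2664099). It read 6.31 with C646 and 5.71 with DMSO at 6 h, and 5.98 with C646 and 5.48 with DMSO at 24 h. The C646 arrays were again both above the DMSO arrays, by 0.60 (1.52-fold) at 6 h and 0.50 (1.41-fold) at 24 h.

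MRPS17, a small subunit protein with a bacterial relative, showed another pattern (probe set 3003143). It read 5.82 with C646 and 5.85 with DMSO at 6 h, and 5.77 with C646 and 5.26 with DMSO at 24 h. The DMSO array at 24 h alone stood apart, 0.59 below DMSO at 6 h, and the C646 minus DMSO difference at 24 h was 0.51. With both DMSO arrays averaged, MRPS17 was at 0.26 for 6 h and 0.22 for 24 h. MRPS17 was the only 1 of 68 members past 1.5-fold between the DMSO arrays, in a comparison where 0.411% of all genes were higher and 0.355% lower at 24 h.

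At the other end of the small subunit, MRPS7 and MRPS18B were the lowest at 24 h. MRPS7, a head protein, read 7.71 with C646 and 7.65 with DMSO at 6 h, and 7.42 with C646 and 7.67 with DMSO at 24 h, a difference of -0.25 at the later time. MRPS18B, 1 of 3 related genes of which the others lack a probe set of their own here, was at 0.10 at 6 h and -0.15 at 24 h. MRPS10, a further head protein, read 8.13 with C646 and 8.21 with DMSO at 6 h, and 8.33 with C646 and 8.45 with DMSO at 24 h. MRPS9, also of the head, read 4.29 with C646 and 4.20 with DMSO at 6 h, and 4.40 with C646 and 4.15 with DMSO at 24 h. The 5 genes assigned here to the head, all with bacterial relatives, thus ran from -0.25 to 0.73 at 24 h and did not share a direction. Mitochondria-specific small subunit genes were given no place, so these 5 may not be the whole head.

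**Figure D2:**
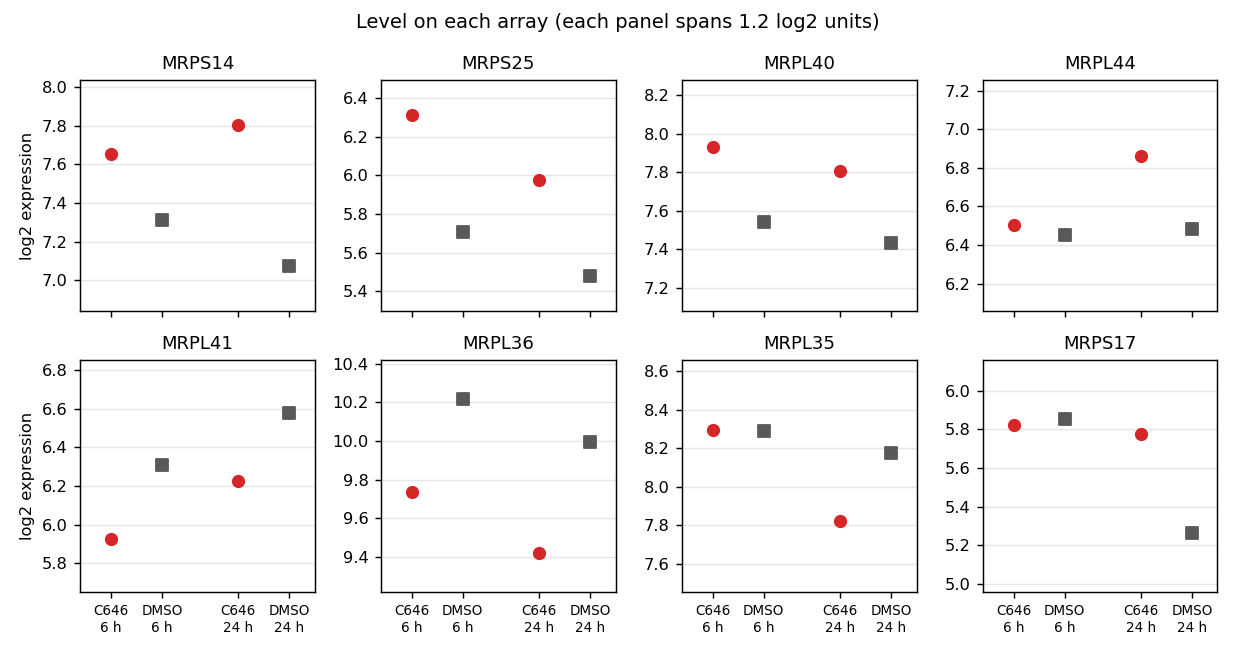
Log2 level of 8 genes on each array, with C646 (red circles) left of DMSO (grey squares) at 6 h and then at 24 h, each panel spanning the same distance on its own axis. MRPS14, MRPS25 and MRPL40 have both C646 arrays above both DMSO arrays, MRPL41 and MRPL36 have both below, and in MRPS17 only the DMSO array at 24 h stands apart.

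Among large subunit genes the highest at 24 h were MRPL2, MRPL44, MRPL40 and MRPL46. MRPL2 encodes a core protein whose bacterial relative lies near the catalytic centre (probe set 2954423), and it read 6.51 with C646 and 6.36 with DMSO at 6 h, and 6.57 with C646 and 6.18 with DMSO at 24 h. Its differences were 0.16 and 0.39, and the mean with its second probe set gave 0.16 at 24 h. That second probe set read only 3.31 to 3.52 on the arrays and is numbered among another chromosome than the gene's. MRPL44 (probe set 2529782), a mitochondria-specific protein, read 6.50 with C646 and 6.45 with DMSO at 6 h, and 6.86 with C646 and 6.48 with DMSO at 24 h. Here only the C646 array at 24 h stood apart from the other 3, by a difference of 0.38 from its vehicle.

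MRPL40 and MRPL46 encode mitochondria-specific proteins of the central protuberance, a projection at the top of the large subunit. MRPL40 (probe set 3936887) read 7.93 with C646 and 7.54 with DMSO at 6 h, and 7.81 with C646 and 7.43 with DMSO at 24 h. MRPL46 (probe set 3638048) read 6.40 with C646 and 6.14 with DMSO at 6 h, and 6.36 with C646 and 6.06 with DMSO at 24 h. Both genes were higher with C646 at each time, MRPL40 by 0.39 and 0.38 and MRPL46 by 0.26 and 0.30. The 6 measured genes assigned here to the protuberance had a 24 h median of 0.014, with MRPL58, an enzyme that releases stalled chains, lowest at -0.17.

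MRPL36 was the lowest member at both times, with a reservation about its probe set. MRPL36 encodes a small core protein with a bacterial relative, and its probe set (2487651) read 9.74 with C646 and 10.22 with DMSO at 6 h, and 9.42 with C646 and 10.00 with DMSO at 24 h. The differences were -0.49 and -0.58, and the arrays did not overlap. This probe set is numbered among those of another chromosome than the gene's. The second MRPL36 probe set (2846186), numbered among its own chromosome, read 5.86 with C646 and 5.86 with DMSO at 6 h, and 5.56 with C646 and 5.78 with DMSO at 24 h, which gives -0.0035 and -0.23.

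MRPL41 encodes a mitochondria-specific protein of the large subunit (probe set 3195344). It read 5.92 with C646 and 6.31 with DMSO at 6 h, and 6.23 with C646 and 6.58 with DMSO at 24 h. Its differences were -0.38 and -0.36, the second -0.22 against the mean of both DMSO arrays. Both C646 arrays were below both DMSO arrays, while each treatment read higher at 24 h than at 6 h. Of the members whose probe set is numbered among its own chromosome, MRPL41 was the lowest at 6 h and, with MRPL35, at 24 h.

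MRPL35, MRPL50 and MRPL15 were near their vehicle at 6 h and below it at 24 h. MRPL35 (core, probe set 2492015) read 8.29 with C646 and 8.29 with DMSO at 6 h, and 7.82 with C646 and 8.17 with DMSO at 24 h, a difference of -0.35. MRPL50 (mitochondria-specific) read 7.75 with C646 and 7.69 with DMSO at 6 h, and 7.53 with C646 and 7.80 with DMSO at 24 h, a difference of -0.27. MRPL15 (core) was at -0.22 at 24 h. In MRPL35 and MRPL50 the C646 array at 24 h stood alone below the other 3.

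The stalk of the large subunit recruits the factors that drive elongation, and its 3 genes differed in their values. MRPL10, at the base of the stalk, read 8.06 with C646 and 7.49 with DMSO at 6 h, and 7.91 with C646 and 7.73 with DMSO at 24 h. The 6 h difference of 0.56 comes from a probe set numbered among another chromosome, and the second MRPL10 probe set, numbered among its own, gave 0.15 at 6 h and 0.22 at 24 h. MRPL11 read 6.99 with C646 and 7.15 with DMSO at 6 h, and 7.15 with C646 and 7.13 with DMSO at 24 h. MRPL12, which also binds the mitochondrial RNA polymerase, stayed between 6.49 and 6.62 on the arrays, with differences of 0.03 and 0.08.

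Signs differed between the times in 22 of 68 members, beside 3778 of 10707 among all genes. MRPL39 (mitochondria-specific) read 5.51 with C646 and 5.74 with DMSO at 6 h, and 5.94 with C646 and 5.69 with DMSO at 24 h, so that its difference was -0.23 at 6 h and 0.25 at 24 h. MRPL51 (mitochondria-specific) was at 0.10 at 6 h and -0.09 at 24 h. Of members that kept their sign, MRPL23, a core protein at the exit of the nascent chain, was at -0.20 at 6 h and -0.08 at 24 h. MRPS30 also kept its sign, at 0.15 at 6 h and 0.03 at 24 h. MRPL9 and MRPL54 read between 3.64 and 3.86 on all arrays, below the limit of 3.96 set for low values, a range in which a difference is hard to read. The other 66 members were at or above that limit.

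Differences at both times had the same sign in 46 of 68 members (67.6%), 33 of them positive and 13 negative, beside 64.7% over all genes. Pearson's r between the 6 h and the 24 h differences was 0.57 across the 68 members and 0.44 across all genes (Spearman's rho 0.471 and 0.428), as a description across genes, which are not independent. In 23 members (33.8%) both C646 arrays were above both DMSO arrays, and in 11 (16.2%) both were below, against 26.5% and 20.8% of all genes. The first set had 14 large and 9 small subunit genes, and the second had 11 large and 0 small subunit genes. Besides the genes named above, the small subunit genes of the first set were MRPS5, MRPS15, MRPS21, MRPS31, MRPS33 and MRPS34, with 24 h differences from 0.05 for MRPS34 to 0.30 for MRPS15. In the second set were MRPL1, MRPL18, MRPL22, MRPL33 and MRPL58, with differences between -0.17 and -0.00044 at the 2 times.

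**Figure D3:**
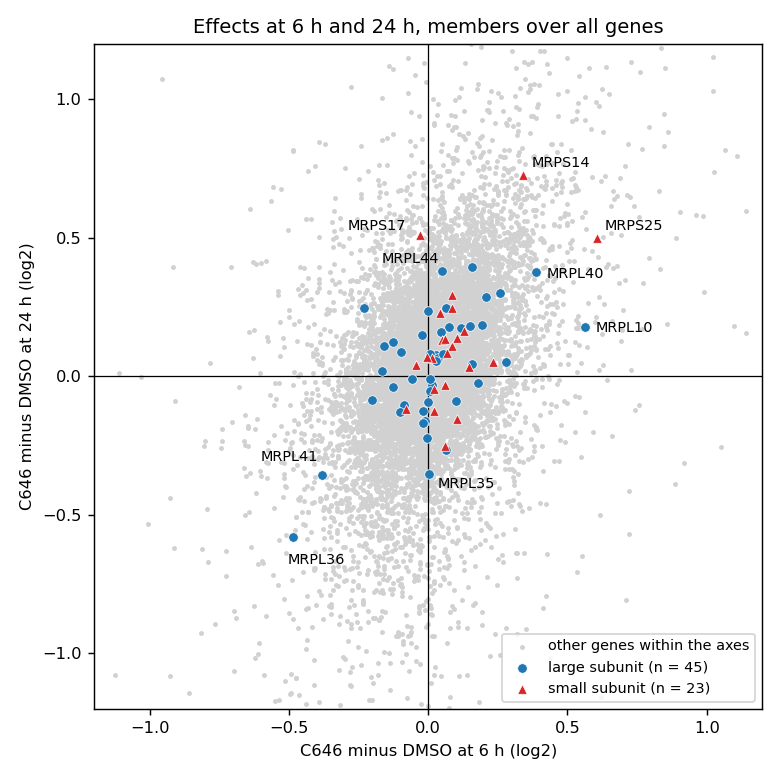
Log2 C646 minus DMSO at 6 h (horizontal) and 24 h (vertical) for large subunit genes (blue circles), small subunit genes (red triangles) and all genes above the low-value limit within the axes (grey). Members lie inside the main cloud, MRPS14 and MRPS25 at its upper right and MRPL36 and MRPL41 at its lower left.

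In a fit over both times with a time term, the only residual is the disagreement of both times' effects, with 1 residual degree of freedom. The fit used, limma with trend, draws each probe set's error toward that of all probe sets of like level. An SE below is therefore not the gene's own disagreement between times: MRPL40 had differences of 0.39 and 0.38 and an SE of 0.11. In this limma fit with time as a term, 0 of 16579 probe sets passed an adjusted p of 0.05 (0.0%), with 1828 (11.0%) at an unadjusted p under 0.05, and 0 of the 66 members fitted passed. At an unadjusted p under 0.05 there were 5 members, 3 higher and 2 lower with C646. They were MRPS25 at 0.55 ± 0.11 (SE), MRPS14 at 0.53 ± 0.15 and MRPL40 at 0.38 ± 0.11, and MRPL36 at -0.53 ± 0.12 and MRPL41 at -0.37 ± 0.11, with a limma adjusted p of 0.448 for each. Leaving out C646 at 6 h, which also takes the time term out of the fit, limma called 2252 of 16579 probe sets (13.6%) for C646 at 24 h against both DMSO arrays, and 1 of 66 members, MRPL36 at -0.69 ± 0.14 (adjusted p = 0.0448). With all arrays and no time term, added after the values were seen, limma called 0 probe sets and 0 members (1608 probe sets and 7 members at an unadjusted p under 0.05). The MRPL36 value comes from the probe set numbered among another chromosome, and the second MRPL36 probe set was at -0.23 against DMSO at 24 h. The fit without C646 at 6 h treats the DMSO arrays of different times as replicates and gives C646 a single array. MRPS14 was at 0.61 (limma adjusted p = 0.0546) and MRPL44 at 0.40 (limma adjusted p = 0.0582).

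The vehicle arrays set a scale for these values. Between DMSO at 24 h and DMSO at 6 h the members had a median of -0.050, beside -0.014 over all genes, and 43 of 68 were lower at 24 h. Within C646, 24 h minus 6 h had a member median of -0.026. The 24 h difference from DMSO was larger in size than the gene's own difference between the vehicle arrays in 45 of 68 members (66.2%), beside 73.7% of all genes. At 6 h it was larger in 35 of 68 (51.5%), beside 59.4%. DMSO at 24 h was the array farthest from the median of the other 3 for 24 members (35.3%), beside 18.4% of all genes, and C646 at 24 h was so for 24 members (35.3%), beside 48.8%.

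Other genes of mitochondrial translation were read from lists drawn up with earlier results of these data known. Of 5 mitoribosome subunits with other names, 3 were measured: DAP3, which also has a role in cell death, gave 0.02 at 6 h and -0.01 at 24 h, GADD45GIP1 gave -0.06 and 0.09, and CHCHD1 gave -0.11 and 0.36. Assembly and rRNA factors (23 of 28 measured) had medians of 0.031 and 0.089 with 0 past 1.5-fold at 24 h. Among all genes 4.36% were that much higher and 5.81% lower, so a count of 0 in a list this short says little. RPUSD3, a pseudouridine synthase-like protein, was highest at 0.54 and RCC1L, an assembly factor, lowest at -0.43 at 24 h. Aminoacyl-tRNA synthetases and the amidotransferase of mitochondria (16 of 20) had medians of 0.030 and 0.028, again with 0 past 1.5-fold at 24 h, beside the same shares.

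Translation factors and membrane insertion (12 of 14) stood at a median of -0.0066 at 6 h and 0.25 at 24 h. At 24 h 2 of the 12 genes were at least 1.5-fold higher, against 4.36% of all genes. OXA1L, the insertase that receives new chains from the mitochondrial ribosome, read 7.60 with C646 and 7.30 with DMSO at 6 h, and 7.92 with C646 and 7.28 with DMSO at 24 h, a difference of 0.64. MTRF1L, a release factor, read 7.78 with C646 and 7.78 with DMSO at 6 h, and 8.12 with C646 and 7.05 with DMSO at 24 h, a difference of 1.06. Its probe set is numbered among another chromosome and DMSO at 24 h was 0.73 below DMSO at 6 h.

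The nuclear-encoded partners of the proteins these ribosomes make, subunits of the respiratory chain and ATP synthase (60 of 78 measured), were at a median of 0.082 for 6 h and 0.21 for 24 h. At 24 h 53 of 60 were above 0 and 1, COX5B of cytochrome oxidase, was past 1.5-fold at 0.73. Among all genes 55.1% were above 0 and 4.36% were at least 1.5-fold higher. Cytosolic ribosomal proteins (63 genes) had medians of 0.020 and 0.058. At 24 h 2 of them were at least 1.5-fold lower, against 5.81% of all genes. These were RPL22 at -1.26 and RPL10A at -0.90, both from probe sets numbered among another chromosome. Most of the 63 genes, among them RPL3, RPL10 and RPS2, were read from such probe sets, so the medians of this list carry the same reservation. No test was made of the mitochondrial ribosome against these lists.

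**Figure D4:**
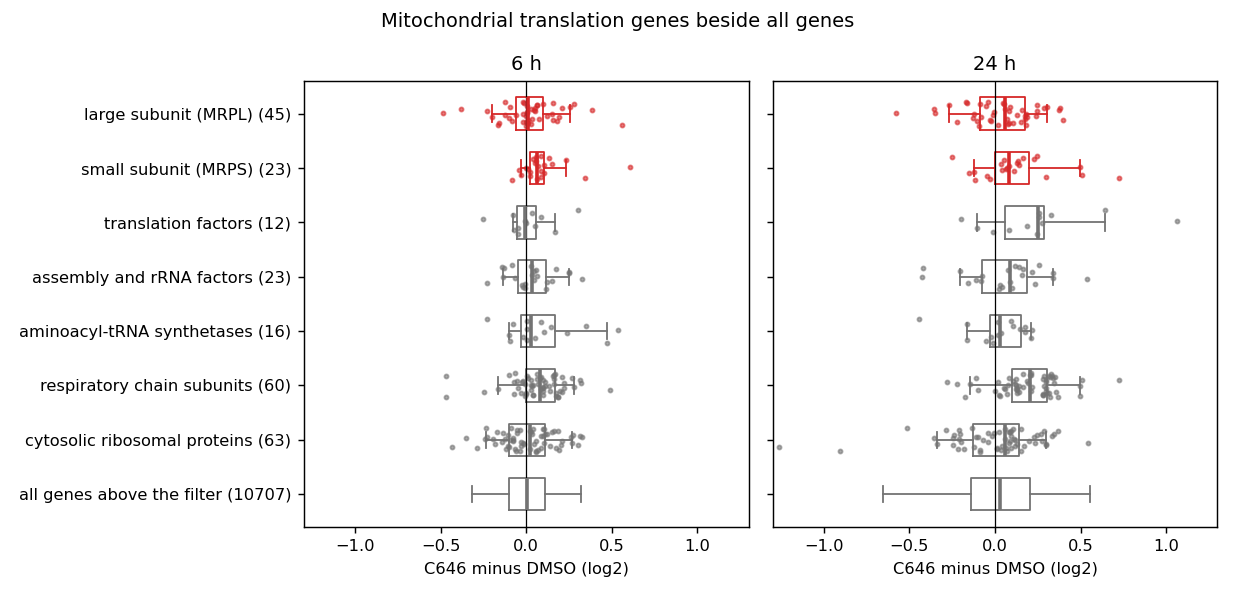
Log2 C646 minus DMSO at 6 h and 24 h for large and small subunit genes (red), for other gene lists (grey, number of genes in brackets) and for all genes above the low-value limit. Boxes are quartiles with the median, whiskers reach the 5th and 95th percentiles and points are single genes. Most cytosolic ribosomal protein genes were read from probe sets numbered among another chromosome than the gene's. The medians of both subunits lie within 0.1 of 0 at both times, while respiratory chain subunits are at 0.21 at 24 h.

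Among 11 measured regulators of mitochondrial biogenesis, PPARGC1A, the coactivator known for inducing mitochondrial genes, was the 1 gene past 2-fold at each time. That size was reached by 0.205% of all genes at 6 h and 3.85% at 24 h. PPARGC1A read 5.82 with C646 and 4.46 with DMSO at 6 h, and 5.58 with C646 and 4.50 with DMSO at 24 h. TFAM, which packages mitochondrial DNA and starts its transcription, was at -0.27 at 6 h and -0.22 at 24 h, and POLRMT, the mitochondrial RNA polymerase, at 0.14 and -0.18. GABPA, the ETS factor whose letters are marked above, was at 0.17 and 0.50 from a probe set numbered among another chromosome. The members' medians of 0.038 and 0.069 stand beside these values, and no relation between them was tested.

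The promoter letters of this gene family were compared with those of all protein-coding genes in windows of 300 bases, from 250 before to 50 after the start. RefSeq windows matched 61 of the 68 members, and MRPL2, MRPL10, MRPL13, MRPL15, MRPL21, MRPL23 and MRPL35 had none in the table. ETS letters were in 24 of 61 windows (39.3%), against 14.2% of 15842 windows in all. YY1 letters were in 12 (19.7%), against 2.74%. The windows of 55 cytosolic ribosomal protein genes held ETS letters in 34.5% and YY1 letters in 7.27%. NRF1 letters were in 2 (3.28%, against 2.76%), the E-box in 4 (6.56%, against 8.88%) and the GC box in 37 (60.7%, against 58.5%). Any of NRF1, ETS or YY1 was in 34 windows (55.7%), against 18.3%. These shares are counts of letters, with no test, and a window without a match says only that these letters are not in it.

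**Figure D5:**
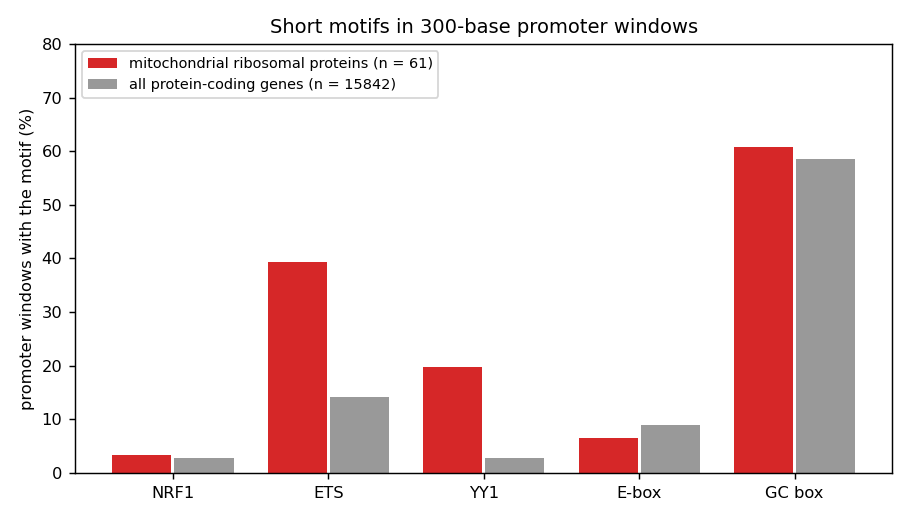
Share of 300-base promoter windows, in percent, that hold each motif on either strand, for 61 mitochondrial ribosomal protein genes (red) and 15842 protein-coding genes (grey). ETS and YY1 letters are in a larger share of the member windows, at 39.3% and 19.7%, than of all windows, at 14.2% and 2.74%.

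The 24 h values were then set beside these letters, as a description. The median difference was 0.074 in the 24 with ETS letters and 0.070 in the 37 without, and it was 0.043 in the 12 with YY1 letters and 0.084 in the 49 without. With a GC box (37 genes) it was 0.131 and without (24 genes) 0.026. Of the printed promoters, those of MRPS14 and MRPL40 hold GC boxes, that of MRPS25 holds none of the motifs and that of MRPL36 holds no GC box. GC boxes are also in windows of members that read lower at 24 h, among them MRPL41 at -0.36, MRPL50 at -0.27 and MRPS7 at -0.25. MRPL46 and MRPS11 lie head to head on chromosome 15 with starts 320 bases apart, so that their upstream windows overlap. MRPL46 gave differences of 0.26 at 6 h and 0.30 at 24 h, and MRPS11 gave 0.06 and -0.03.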

How the data were processed

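Total RNA from WM35 cells was labelled with biotin and hybridised to Affymetrix Human Exon 1.0 ST arrays, per the labels' protocols. The authors deposited 1 log2 expression value per probe set and array, and the build hg19 is given per the submitters' processing notes. Summarisation and normalisation were not given in the sources used here. All 4 arrays had medians from 4.39 to 4.41.

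Of 27631 probe sets, 20429 carry 1 gene symbol in the platform annotation, 4232 several and 2970 none. Symbols were updated by Entrez identifier to the RefSeq table of GRCh38.p14, which matched 20362 and left 67. A probe set counts as numbered among its own chromosome where that chromosome is the most frequent among the 50 placed probe sets nearest in number, or holds at least 25% of them. The filter was the 40th percentile of the mean over all arrays (3.961), which left 10707 genes and 16579 probe sets. Differences are C646 minus DMSO of the same time. limma 3.58.1 in R 4.3.3 (lmFit and eBayes with trend, time as a term, Benjamini-Hochberg over all probe sets kept) was tested on simulated data. Other steps used Python 3.11.15 with pandas 2.3.3.

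The members, lists and naming rule were chosen with earlier results of these data known. The rule gives all arrays for members past 1.5-fold, for the 6 highest and lowest at 24 h, the 4 at 6 h and the 3 by mean level, and for a set of members of known function, with the 2 highest and lowest at 24 h of each other list. The text shortens this for some members to their differences, and names fewer genes of the other lists. Classes by bacterial relative and place in the ribosome were assigned from general knowledge. Alternatives changed the probe set per gene, the normalization, the centring, the vehicle, the symbols, the placement, the filter, the fold, the time term and the arrays. A value counts as moved where it changed sign or by over 1.5 times.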

Additional observations from a re-analysis of the deposited data

How the results depend on the processing

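The member medians stayed positive under all alternatives run. Against the mean of both DMSO arrays they moved, at 6 h to 0.059 (from 0.038) and at 24 h to 0.034 (from 0.069). The count past 1.5-fold, 1 gene at each time, was 0 at 6 h and 0 at 24 h with 2-fold, 7 and 13 with 1.2-fold (chosen after seeing the data), and 2 and 2 with quantile normalization. At 24 h it was also 2 against the mean of both DMSO arrays and 3 with probe sets of several symbols, which cover 77 genes. Large minus small subunit at 24 h (-0.028) was -0.057 with probe sets of several symbols, -0.017 over members above the 40th percentile, 0.0049 above the 60th and -0.043 by place in the structure. The same difference at 6 h kept its sign and moved by less than 1.5 times under all alternatives run. The causes were not tested. Leaving out 1 array at a time, limma called 0 to 1 members, the 1 without C646 at 6 h. These fits have no time term, and all arrays without it gave 0. The member called was MRPL36, from the probe set numbered among another chromosome. Of the values of 25 named members under alternatives, 307 kept their sign and lay within 1.5 times, 36 moved further with the same sign and 7 had the other sign, 0 of them past 1.5-fold as first given. No paired analysis was possible because the groups share only replicate number 1, and the fit pairs C646 and DMSO by time instead. With no replicate arrays, no difference at a single time has an error.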

Other observations

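Transcripts beside the members read differently from them in some probe sets. MRPL20-AS1, the antisense neighbour of MRPL20, had 4 probe sets. The one with the largest 24 h difference (4041862) read 5.11 with C646 and 4.98 with DMSO at 6 h, and 6.96 with C646 and 4.87 with DMSO at 24 h, a difference of 2.09. The one with the highest mean level (2315870) read 5.60 with C646 and 4.83 with DMSO at 6 h, and 6.48 with C646 and 5.13 with DMSO at 24 h, a difference of 1.36. The other 2 were at 0.26 and 0.35 at 24 h. MRPL20 itself was at 0.08 at 6 h and 0.18 at 24 h, and its second probe set at 0.01 and 0.21. KGD4, once named MRPS36 and now placed in a dehydrogenase complex, was at 0.24 and 0.35. MRPL23-AS1 was at 0.41 at 6 h and -0.25 at 24 h in its brighter probe set. These transcripts were singled out after their values were seen.

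Second probe sets of some members differed from the ones used. Those of MRPL30 were at 0.45, -0.67 and -0.02 at 24 h, all with readings below 4 on the arrays, where the probe set used was at -0.01. That of MRPL22 was at -0.41 with readings from 2.95 to 3.36, where the one used was at -0.13.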
